A study of Brassica napus with 6 samples.

Results

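The step from day 40 to day 50 after flowering was examined in seeds of watered oilseed rape (Brassica napus), a crop whose genome joins an A and a C subgenome. It was read from 2 of the 6 RNA sequencing libraries of the study, the control library of day 40 and the control library of day 50, each the only library of its group. The other 4 were the control library of day 30 and the drought libraries of days 30, 40 and 50, the drought having begun when flowering began. Both treatments grew under a waterproof shed, and the labels speak of 6 lines without giving the line or the number of plants behind a library. With 1 library per group no difference below has a replicate check, and no p-value is given. A difference between the libraries may hold differences between lines or plants as well as seed age.

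A seed of this crop first forms its embryo, then fills with oil and storage proteins, and then dries. The genes of storage proteins, of oil synthesis and of oil body coats are known to be switched on during filling. Genes that protect cells in the dry state are known to follow, while genes of cell division and of the green embryo's photosynthesis are known to be turned down. The deposited table does not pair its 72611 gene IDs with such functions. Ignoring case, 2926 of the IDs equal a gene symbol in the RefSeq table of the Da-Ae assembly, and 2 of those carry a further name. The seed label could therefore not be checked against known seed genes, no pathway is named below, and no sequence is printed. The genes are described instead by their levels, their paths over the 3 days, their values in drought seeds, their length and their place in the ID scheme.

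At day 40 the control library had 13893472 reads counted to genes and at day 50 it had 14918127, and the other 4 libraries had from 10314859 to 16177156. Levels are given as CPM, the counts of a gene as a share of the scaled library size, after scaling the libraries by the trimmed mean of M values, a method that sets the bulk of genes equal between libraries. A gene is said here to have risen or fallen in a step when the 2 libraries stood at least 2-fold apart, with 0.5 reads added to each, which describes the libraries and is no test. The labels give the tissue as seed and name no parts of it, so fewer cells of a type and less RNA per cell cannot be told apart.

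From day 40 to day 50 in control seeds, 1691 of 26702 genes rose and 1380 fell, the genes counted being those that averaged 5 CPM or more over this pair. These are 6.33% and 5.17% of the genes, or 11.5% together. Rises of at least 4-fold numbered 426, those of at least 8-fold 102 and those of at least 16-fold 28. Falls of these sizes numbered 266, 42 and 13. Most genes moved little, with a median log2 ratio of 0.02 and the middle 50% of genes between -0.29 and 0.35. Close to the 2-fold border, 610 genes lay at an absolute log2 ratio of 0.9 to 1 and 502 at 1 to 1.1.

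The balance of rises and falls depended on the scaling. Of the genes that changed, 55.1% were higher at day 50. Scaled by library totals alone, the libraries had a median log2 ratio that moved from 0.02 to -0.27, with 1046 genes higher and 2482 lower, or 29.6% higher. The most abundant transcripts took up more of the day 50 library: its 10 most abundant genes held 19.4% of reads, against 12.3% for those of day 40. Of the 1691 rises 1069, and of the 1380 falls 757, had a 95% counting interval of the ratio that lay wholly past 2-fold, and the intervals of the rest reached across that border. These intervals cover counting error only.

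The preceding step from day 30 to day 40 held larger changes. In that step 1949 of 26938 genes rose and 1693 fell, which is 7.24% and 6.28%. At least 16-fold changes numbered 175 rises and 158 falls there, against 28 and 13 in the later step. Across genes the log2 ratio had a standard deviation of 1.01 in the earlier step and of 0.72 in the later one. Both steps hold the control library of day 40, and the difference between them was not tested.

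The genes that rose at least 4-fold to day 50 had mostly been near silence at day 30. In control seeds of days 30, 40 and 50 their median levels were 0.640, 4.29 and 30.4 CPM, and 259 of the 426 were under 1 CPM at day 30. At day 50, 90 of them stood at 100 CPM or more. The lowest stood at 8.07 CPM and the highest at 2960 CPM. The choice of genes partly sets these day 50 levels, since a 4-fold rise and the filter on the pair mean together require a high value there. The 266 genes that fell at least 4-fold followed the opposite course, with medians of 30.9, 20.5 and 3.72 CPM at days 30, 40 and 50. Of these, 16 were under 1 CPM at day 50. The fall of this group was thus larger between days 40 and 50 than between days 30 and 40, but the genes were chosen by the later fall.

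Reads moved towards the genes that rose, which the choice of genes largely sets in the control libraries of days 40 and 50. The 1691 rising genes held 2.85%, 11.0% and 24.7% of control reads at days 30, 40 and 50. The 1380 falling genes held 11.2%, 7.35% and 2.08%. In the drought libraries, which played no part in the choice of genes, the rising genes held 2.78%, 20.04% and 28.2% of reads at days 30, 40 and 50, and the falling genes 10.4%, 4.27% and 1.53%. The exact Clopper-Pearson 95% intervals of these shares, which cover counting error only, were no wider than 0.0244 percentage points on a side. Between the control libraries of days 40 and 50, 20.8% of the library changed hands between genes. The 100 genes of largest gain took up 13.7% of the library, whereas the 100 of largest loss gave up 3.32%. Of the 100 most abundant genes of each library, 66 were common to both days.

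Few genes went from no reads to at least 10 reads or back within this step. Of the 72611 genes, 107 had at least 10 reads at day 50 and none at day 40, and 212 had at least 10 at day 40 and none at day 50. Without the minimum of 10 reads, 3277 genes were read at day 50 and not at day 40, and 4055 the other way. Among genes that averaged 5 CPM or more over the pair, 0 of the 1691 rises began from 0 reads at day 40. Likewise, 0 of the 1380 falls ended at 0 reads at day 50.

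To see which genes went on in the direction of the first step and which turned back, the 2 control steps were set beside each other for the 27177 genes that averaged 5 CPM or more over the 3 control libraries. Neither step changed 21660 genes by 2-fold. A rise in the first step was seen for 2392 genes, of which 798 rose again, 1424 stayed within 2-fold and 170 fell. A fall in the first step was seen for 1393 genes, of which 539 fell again, 777 stayed within 2-fold and 77 rose. After a first step within 2-fold, 619 genes rose and 1113 fell. With library totals alone these were 313 and 2128, and the order of repeated rises and falls turned, with 533 genes that rose again and 966 that fell again. As shares of the genes in this set, 2.94% rose again, 2.28% rose in the second step only, 1.98% fell again, 4.1% fell in the second step only, 0.626% rose and then fell, and 0.283% fell and then rose. The day 40 library enters both steps with opposite sign, so a value that is by error high or low at day 40 adds to the turning paths and takes from the continuing ones.

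**Figure D1:**
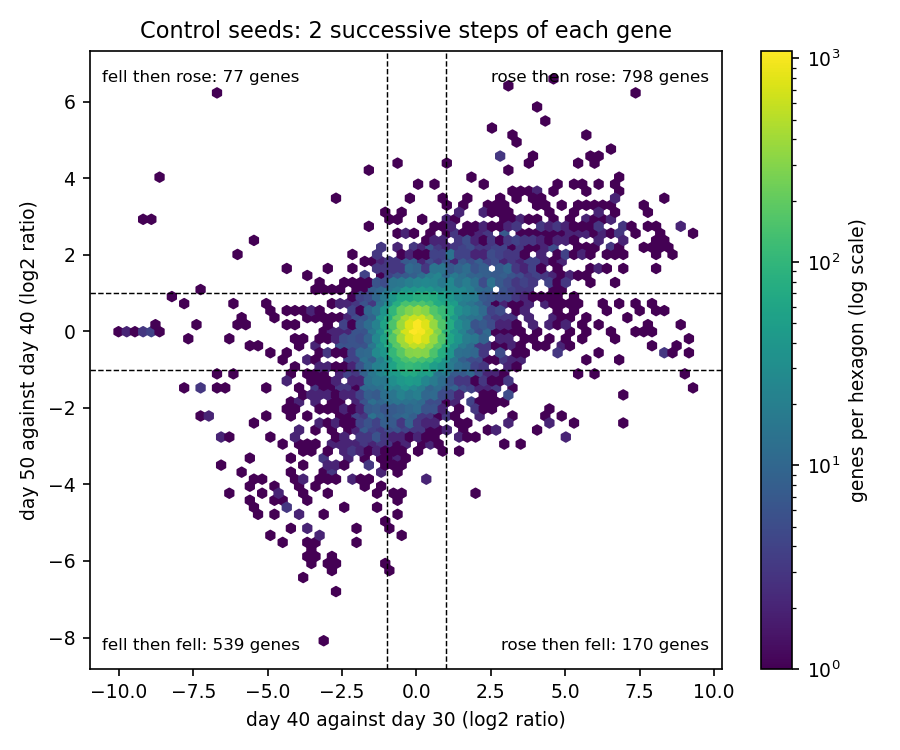
Each of 27177 genes is placed by its log2 ratio of day 40 to day 30 (x axis) and of day 50 to day 40 (y axis) in control seeds, with colour for the number of genes per hexagon on a log scale and dashed lines at 2-fold. The 798 genes of the upper right corner and the 539 of the lower left outnumber the 170 and 77 of the turning corners. This order depends on the filter: with none, 2140 genes rose again and 2473 fell again, against 2942 that rose then fell and 2914 that fell then rose. Over genes that averaged 5 CPM or more at days 40 and 50, 940 rose again and 227 fell again. Among the same genes 189 rose then fell, close to the number that fell again, and 56 fell then rose.

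Late rises were mostly continued rises, and late falls were mostly new ones. Of the 1494 genes in this set that rose from day 40 to day 50, 53.4% had already risen in the first step, 41.4% had stayed within 2-fold and 5.15% had fallen. Of the 1822 that fell, 29.6% had already fallen, 61.1% had stayed within 2-fold and 9.33% had risen. Another set, of genes that averaged 5 CPM or more at days 40 and 50, was added after the data were seen. In it 55.6% of rises were continued and 69.9% of falls followed a first step within 2-fold. Of the falls in that set, 16.4% had already fallen and 13.7% had risen, so the share of continued falls depends on the filter. The order among rises turned when genes down to 1 CPM were let in, where 1407 rose again and 1569 rose late. With no filter, late falls after a first step within 2-fold made up 47.5% of falls.

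The genes that rose again had the highest median level and the largest share of reads at day 50 among the 3 groups of late rises. The paths and the filter on the 3-day mean partly set these levels and shares. Their median log2 ratio was 2.48 in the first step and 1.65 in the second, and their median levels at days 30, 40 and 50 were 1.98, 11.3 and 40.2 CPM. These 798 genes held 1.79%, 10.1% and 22.7% of control reads at days 30, 40 and 50. The 619 genes that rose in the second step only had medians of 6.27, 6.68 and 16.4 CPM and held 0.906%, 0.813% and 1.75% of reads. At day 50, 219 of the 798 stood at 100 CPM or more, against 34 of the 619. In drought seeds 374 of the 798, or 46.9%, also rose in both steps, where 2.23% of all genes in the set did. There 164 of the 619, or 26.5%, rose in the second step only, against 7.06%. However, 264 of the 619, or 42.6%, had already risen in drought from day 30 to day 40. Of the 21660 genes that neither control step changed by 2-fold, 6.53% had.

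Among genes of at least 20 CPM over the pair that had already risen, the largest further rise belonged to Cole_newGene_4692, a gene model of 920 bases with no function given in the files. It had 1, 32 and 2768 reads in the control libraries of days 30, 40 and 50, or 0.0640, 2.18 and 215 CPM. Its levels in drought seeds were 0.378, 141 and 2673 CPM. Each later day was higher in both treatments, and each drought library stood above the control library of its day. At day 30 that order rests on 8 drought reads against 1 control read. Their counting intervals overlapped, at 0.163 to 0.744 CPM in drought and 0.0016 to 0.356 CPM in control. The control ratio of day 50 to day 40 was 98.4, with a counting interval of 69.6 to 144. The first control step rests on the single read of day 30, with a ratio of 34.1 and an interval of 5.70 to 1388. The drought ratio of day 50 to day 40 was 18.9, with an interval of 17.8 to 20.1.

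The falling genes of both kinds are described by their levels, which the paths and the filter on the 3-day mean partly set. The 539 genes that fell in both steps had median control levels of 24.1, 6.61 and 1.71 CPM at days 30, 40 and 50. The 1113 that fell in the second step only had 17.6, 15.4 and 5.51 CPM. The late falls held 6.36%, 4.98% and 1.48% of control reads at the 3 days, and the repeated falls 5.54%, 1.19% and 0.272%. In drought seeds 301 of the 539, or 55.8%, also fell in both steps, against 3.18% of all genes in the set. Many of the 539 read low there, with 105 under 1 CPM at drought day 40 and 259 at drought day 50. In drought 477 of the 1113, or 42.9%, fell in the second step only, against 10%. However, 392 of the 1113, or 35.2%, had already fallen in drought from day 30 to day 40. Of the 21660 genes that neither control step changed by 2-fold, 6.57% had.

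The largest further fall among genes of at least 20 CPM belonged to BnaA03g38820D, an A subgenome gene of 567 bases. It had 4373, 597 and 7 reads in the control libraries of days 30, 40 and 50, or 280, 40.7 and 0.543 CPM. Its levels in drought seeds were 236, 12.9 and 0.236 CPM, the last being 3 reads. Both treatments fell at each step, and drought lay below control on each day. At day 50 that order rests on 3 drought reads against 7 control reads. Their counting intervals overlapped, at 0.0486 to 0.689 CPM in drought and 0.218 to 1.12 CPM in control. Control seeds of day 50 were 74.9-fold below those of day 40, with a counting interval of 36.1 to 187. The next largest further fall among such genes was a log2 ratio of -3.89, against -6.14 for this gene.

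**Figure D2:**
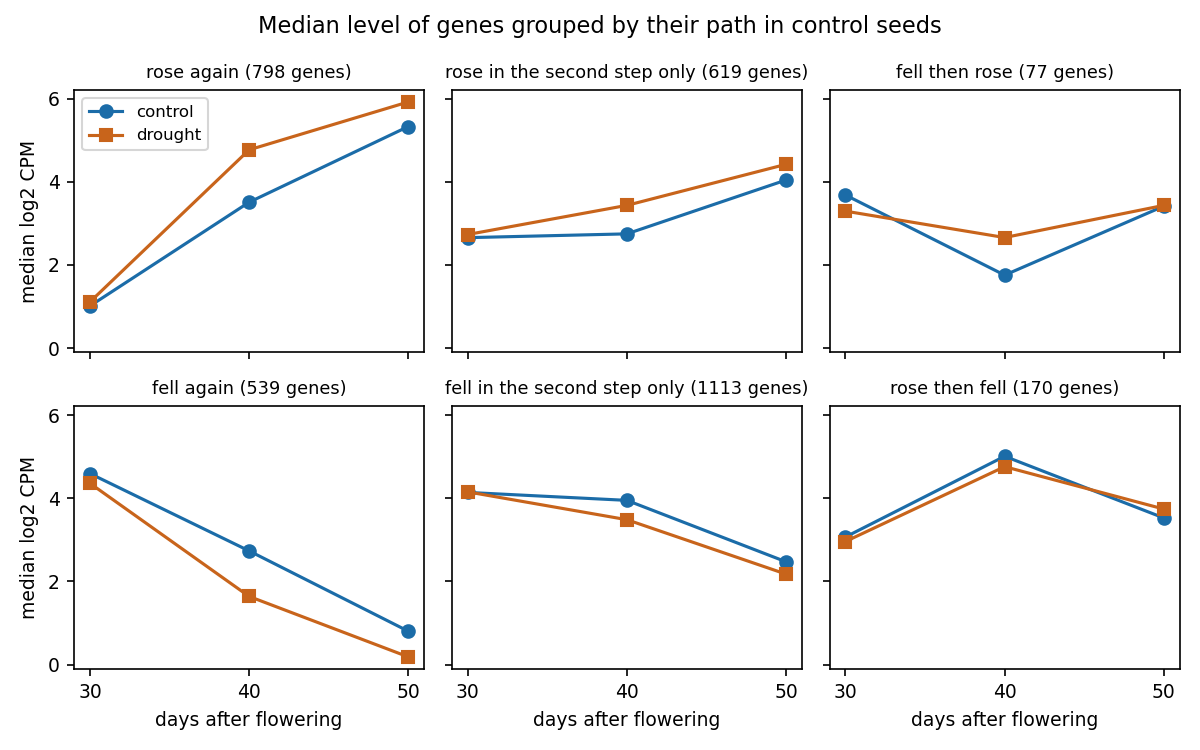
Median log2 CPM (y axis) by days after flowering (x axis) in control and drought libraries for genes grouped by their path in control seeds alone, with 1 library per point. The drought medians move in the same direction as the control medians at both steps in all 6 groups, including the 170 genes that rose then fell and the 77 that fell then rose.

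The 170 genes that rose and then fell formed a peak at day 40. Their median control levels were 8.35, 32.2 and 11.5 CPM at days 30, 40 and 50. At day 50, 120 of them were back within 2-fold of day 30, 38 were still at least 2-fold above it and 12 at least 2-fold below it. Both counting intervals lay wholly past 2-fold for 88 of the 170, and 23 genes changed at least 4-fold both ways. In drought seeds, which did not choose them, their medians were 7.74, 27.0 and 13.3 CPM. The drought library of day 40 was the highest of the 3 drought libraries for 140 of the 170, or 82.4%, where this held for 28.8% of all genes in the set. A rise followed by a fall, both at least 2-fold, was seen in drought for 83 of them, or 48.8%, against 2.74% of all genes in the set.

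BnaA10g20560D, of 2372 bases, had the largest fall after a rise among genes of at least 20 CPM. It had 224, 1601 and 191 reads in the control libraries of days 30, 40 and 50, or 14.3, 109 and 14.8 CPM. Its levels in drought seeds were 11.6, 101 and 28.8 CPM. Day 40 was the highest day in both treatments, and the control level of day 50 was close to that of day 30. The control level was 7.62-fold higher at day 40 than at day 30, with a counting interval of 6.62 to 8.80. It was then 7.37-fold lower at day 50, with an interval of 6.34 to 8.60. In drought the second step was a 3.52-fold fall, with an interval of 3.11 to 3.99.

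The 77 genes that fell and then rose formed a smaller group with a trough at day 40. Their median control levels were 12.8, 3.34 and 10.6 CPM at days 30, 40 and 50, and 57 of them ended within 2-fold of day 30. Both counting intervals lay wholly past 2-fold for 10 of the 77. In drought seeds the medians were 9.77, 6.28 and 10.8 CPM. The drought library of day 40 was the lowest of the 3 for 42 of the 77, or 54.5%, against 25.8% of all genes in the set. A fall and then a rise of at least 2-fold each was seen in drought for 19, or 24.7%, against 1.56%.

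BnaC05g00840D, a C subgenome gene of 2589 bases, had the largest rise after a fall among genes of at least 20 CPM. It had 1061, 446 and 1730 reads in control seeds of days 30, 40 and 50, or 67.9, 30.4 and 134 CPM. Its levels in drought seeds were 139, 33.6 and 49.1 CPM. Day 40 was the lowest day in both treatments, but control seeds ended above their day 30 level and drought seeds below theirs. The control ratio of day 50 to day 40 was 4.41, with a counting interval of 3.98 to 4.91, and the drought ratio was 1.46, with an interval of 1.26 to 1.70. The difference between treatments was not tested, since each had 1 library per day.

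**Figure D3:**
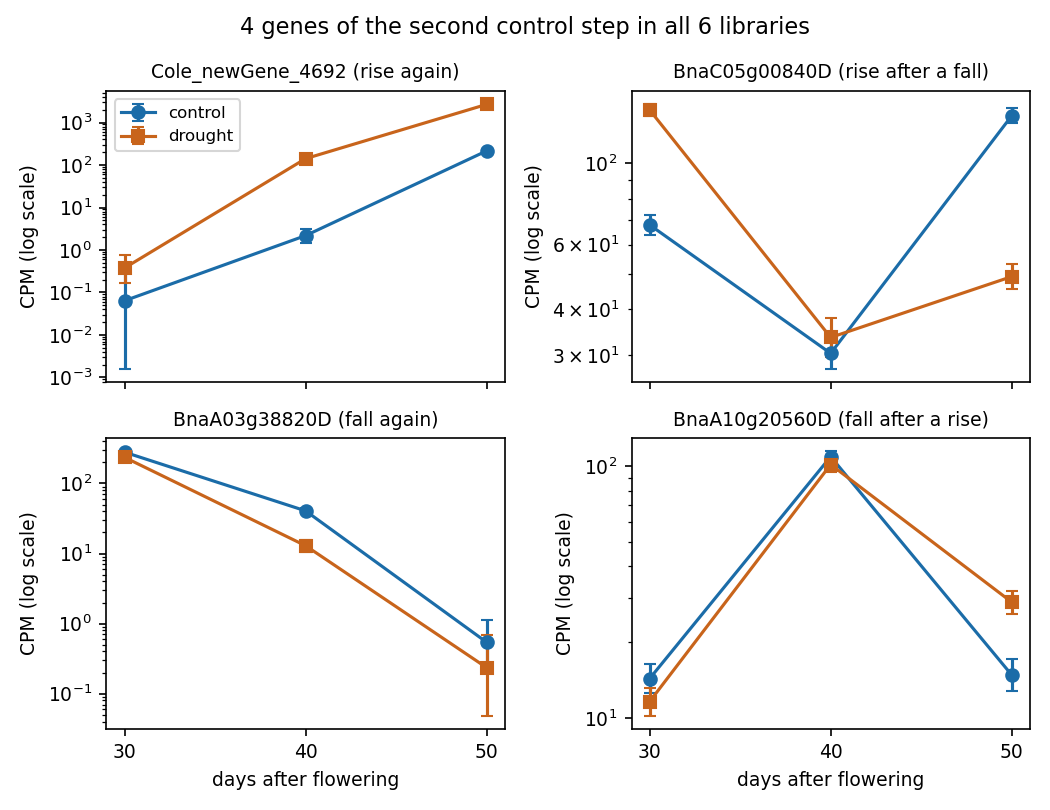
CPM on a log scale (y axis) by days after flowering (x axis) in control and drought libraries for the 4 genes with the largest change to day 50 after a rise or a fall in the first step, with exact Poisson 95% intervals that cover counting error only. Cole_newGene_4692 rises and BnaA03g38820D falls at each day in both treatments, BnaA10g20560D peaks at day 40 and BnaC05g00840D is lowest at day 40.

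The late control step was also visible in drought seeds, in libraries that share none of its reads. Of the 1691 genes that rose in control seeds from day 40 to day 50, 821 also rose in drought seeds and 45 fell. That is 48.6% against 11.5% of all 26702 genes for a rise, and 2.66% against 14.8% for a fall. Of the 1380 genes that fell in control seeds, 913 also fell in drought, or 66.2%, and 19 rose, or 1.38%. The median drought log2 ratio was 0.97 for the control risers, -1.50 for the control fallers and -0.01 for all genes. Larger control changes went with larger drought changes: the 28 genes over 16-fold higher in control had a drought median of 3.46, and 27 of them rose in drought. The 13 genes over 16-fold lower had a drought median of -3.67, with 11 falls, but only 5 of the 13 reached a mean of 5 CPM in drought seeds of days 40 and 50. Pearson's r between the control and drought log2 ratios was 0.563 across the 26702 genes, and Spearman's rho was 0.502. The points share gene length, annotation and the scaling of the libraries.

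**Figure D4:**
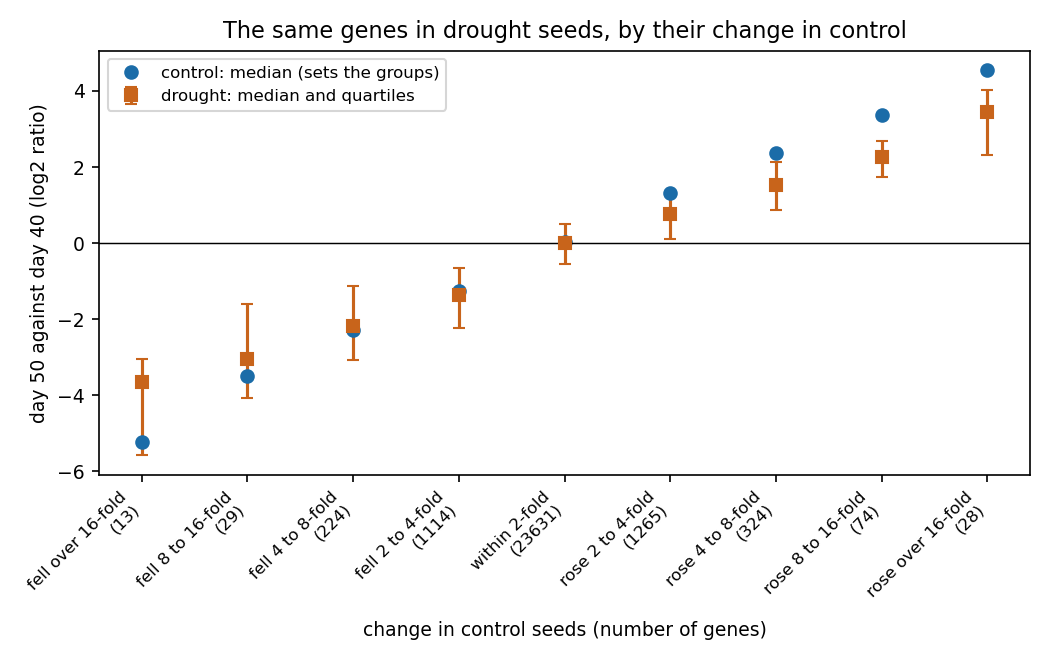
Median log2 ratio of day 50 to day 40 in drought seeds with quartiles (y axis) for genes grouped by their change between the same days in control seeds (x axis), beside the control medians that set the groups. The drought medians run from -3.67 in the group that fell over 16-fold in control to 3.46 in the group that rose over 16-fold.

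At day 40 the genes that later rose in control stood higher in drought than in control seeds. The control risers stood at a median of 3.71, 6.95 and 21.2 CPM in control seeds of days 30, 40 and 50, and at 3.73, 14.0 and 28.8 CPM in drought seeds. The control fallers stood at 22.4, 19.3 and 6.79 CPM in control and at 21.7, 13.3 and 4.95 CPM in drought. The gap at day 40 shares the control library of that day with the choice of genes, which favours risers that read low there. The control step was then read for genes grouped by the drought step from day 30 to day 40, a grouping that shares no library with it. Of 3442 genes that rose in that drought step, 27.3% rose and 5.26% fell in the later control step. Of 2084 genes that fell in it, 25.7% fell and 1.30% rose. Of all 25021 genes in this grouping, 5.20% rose and 5.36% fell.

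The drought step carried a length trend that the control step held less of. From day 40 to day 50 the median log2 ratio of genes no longer than 400 bases was -0.10 in control and -0.64 in drought, and that of genes over 2500 bases was 0.11 and 0.41. Across genes, log2 length and the log2 ratio had a Pearson's r of 0.0713 in control and 0.311 in drought. With the length trend removed from each step, 50.3% of control risers rose in drought and 65.7% of control fallers fell, close to the shares with the trend left in. In control seeds both kinds of change were more common among short genes. Rises made up 12.3% and falls 10.6% of the 284 genes no longer than 400 bases, and 4.44% and 2.90% of the 6267 genes over 2500 bases.

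Genes that are abundant in late drought seeds rose most often in control seeds. Of the 70 genes with a mean over 1000 CPM in drought seeds of days 40 and 50, 45 rose in control from day 40 to day 50 and 2 fell. Of the 1216 genes between 100 and 1000 CPM there, 21.1% rose and 5.51% fell. Of the 14694 genes between 5 and 20 CPM, 4.90% rose and 4.30% fell. In drought seeds themselves, 18.6% of the 70 genes rose in the same step and 24.3% fell, against 11.5% and 14.8% of all genes. Taking the 100 genes that held most drought reads on these days, 61 rose in control and 4 fell, where 6.33% of all genes rose and 5.17% fell, with a median log2 ratio of 1.26 in control and -0.09 in drought. In control seeds their median log2 ratio from day 30 to day 40 had been 2.45.

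**Figure D5:**
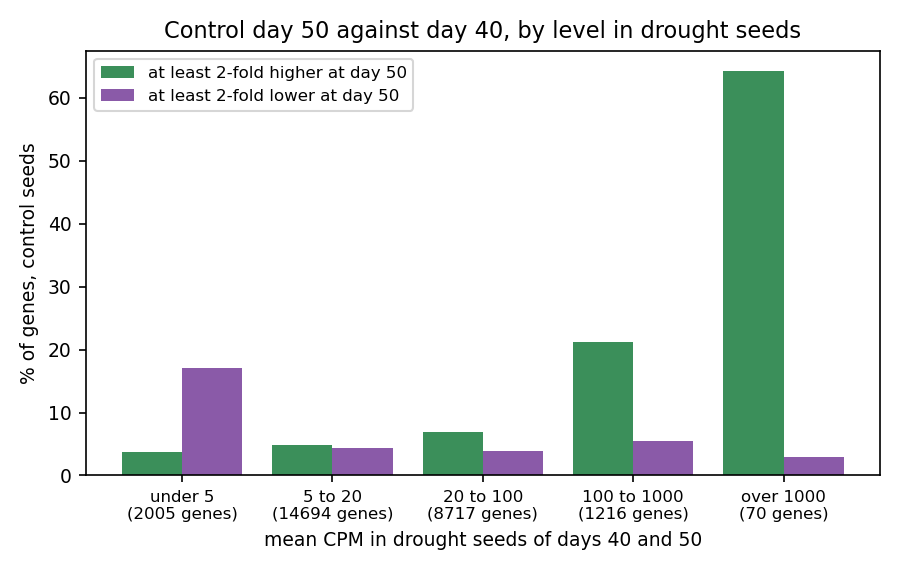
Percent of genes at least 2-fold higher or lower in control seeds of day 50 than of day 40 (y axis) by mean CPM in drought seeds of days 40 and 50 (x axis, number of genes in brackets). The share of rising genes goes from 3.69% in the lowest class to 64.3% in the highest, and the share of falling genes from 17.1% to 2.86%. The 2005 genes of the lowest class, under 5 CPM in drought, passed the filter only through the control libraries of days 40 and 50. The same libraries give their rises and falls, so the choice of genes partly sets the shares of that class.

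Genes of both subgenomes rose and fell in this step, and the new gene models had a larger share of rises. Of 12591 A genes 6.40% rose and 5.27% fell, and of 13232 C genes 6.02% rose and 5.18% fell. Among 831 gene models named Cole_newGene, taken here as new gene models, 10.5% rose and 3.61% fell. In drought seeds 18.5% of these models rose and 12.8% fell from day 40 to day 50, against 11.5% and 14.8% of all genes. These differences between classes were not tested. By the chromosome that the ID names, rising genes ran from 5.12% on C04 to 7.82% on A02, and falling genes from 3.55% on A10 to 7.06% on C03.

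Genes with consecutive ID numbers, which follow each other along a chromosome in this naming scheme, shared a rise or a fall in some pairs, and no test was made of how often. Among 7513 such pairs, 455 had a first gene that rose, and in 54 of those, or 11.9%, the second rose too, where 6.19% of second genes rose in all. For falls it was 33 of 374, or 8.82%, against 5.16%. In 39 pairs 1 gene rose and the other fell. The correlation of the log2 ratio within pairs was 0.0809, which is weak. Neighbours can be tandem copies, and near-identical copies can share reads, as can A and C copies, so such pairs are not separate measurements. The handling of reads with several matches is not given in the sources used here.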

How the data were processed

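RNA was measured by sequencing in 6 seed libraries, 1 for each treatment and day. The authors deposited raw counts per gene with a gene length, and, in files of their own, values read here as FPKM (fragments scaled by transcript length and library size) because the submitters' processing notes name Cufflinks. The headers give no unit. For the aligner, the counter, the build and strand, the sources used here give nothing. The deposited counts were used throughout, and the authors' FPKM only as an alternative. Libraries were scaled with the trimmed mean of M values in edgeR 4.0.16 (R 4.3.3) over the 49832 genes kept by filterByExpr with days as groups. Log2 ratios used a prior of 0.5 reads per library, scaled to depth. A minimum mean of 5 CPM was taken over the pair of days 40 and 50, or over the 3 control libraries for paths. Ratio intervals are exact conditional binomial and levels exact Poisson intervals at 95%. Named genes are the largest rise and the largest fall to day 50, at a pair mean of at least 20 CPM, among genes that had risen and among genes that had fallen at least 2-fold from day 30 to day 40. Members, thresholds and lists were chosen with earlier results of these data known. DESeq2 1.42.0 size factors were an alternative. The class assignment was tested on simulated data with Poisson counting error alone, where 4-fold changes were planted in genes of at least 20 CPM. That test did not cover changes near the 2-fold border or genes from 5 to 20 CPM.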

Additional observations from a re-analysis of the deposited data

How the results depend on the processing

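No paired analysis was possible because each treatment had 1 library per day. The cause of the changes below was not tested, beyond the number of genes that a filter lets in. DESeq2 size factors, a prior of 2 reads and removal of the length trend left every count within 1.5 times its value. Scaling on the control libraries alone was added after the data were seen. It gave the same library sizes as the main scaling and so the same values, and is no separate check. With library totals alone, 1046 genes were higher and 2482 lower, 966 fell again, 2128 fell late and 313 rose late. Then 62.8% of control risers rose and 51.1% of control fallers fell in drought too. The log2 ratio of BnaA10g20560D was -3.17 and that of BnaC05g00840D 1.85. With a minimum of 1 CPM, 3674 were higher and 3587 lower, 1407 rose again, 1569 rose late, 584 fell then rose, 1338 fell again, 2520 fell late and 423 rose then fell, with 53.6% of fallers lower in drought. With a minimum of 20 CPM these were 662, 486, 375, 142, 7, 149, 413, 79 and 74.9%. With no filter they were 9559, 10322, 2140, 4505, 2914, 2473, 4907, 2942 and 36.9%, with 42.4% of risers higher in drought. With the authors' FPKM the drought shares were 51.8% of risers and 60.4% of fallers. Over genes that averaged 5 CPM or more at days 40 and 50, 227 fell again.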
